A study of Rattus norvegicus with 12 samples.

Results

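The integrin and laminin chains are described here across 3 Xdh genotypes of rat kidney cortex. The members were all genes whose symbol is an integrin alpha or beta name or a laminin alpha, beta or gamma name. The rule uses names alone, but it was chosen with earlier results of these data known. The rule matched 36 of the 32623 genes in the count table: 17 integrin alpha chains, 8 integrin beta chains, Itgbl1 and 10 laminin chains. Itgbl1 encodes a secreted protein with integrin-like repeats and is not a receptor chain. All 36 members passed the filter on low counts, Itga10 through its HOMO libraries alone. Itgam, Itgb2l, Lama3 and Lamb4 were not analysed here.

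The tissue was kidney cortex, taken from males at 6 weeks of age, and its messenger RNA was sequenced. The homozygous mutants (HOMO) carried the em1 allele of Xdh on both chromosomes, the heterozygotes (HET) carried it on 1, and the wild-type rats (WT) carried none. All 3 groups were littermates of the strain labelled SS-Xdhem1Mcwi, on the Dahl salt-sensitive (SS) background, and each had 4 libraries. Xdh encodes xanthine dehydrogenase, which makes uric acid. Values are listed in the order HOMO replicates 1 to 4, HET replicates 1, 2, 4 and 5, and WT replicates 1 to 4. The labels do not say whether each library came from its own animal, so the p-values measure the spread between these libraries, which may be technical.

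Integrins are cell surface receptors made of 1 alpha and 1 beta chain, and the pair decides which matrix or cell surface ligand is bound. Laminins are secreted as trimers of 1 alpha, 1 beta and 1 gamma chain, and they form the sheet of the basement membrane to which epithelial, endothelial and muscle cells attach. In the kidney, laminins and their integrin receptors hold the tubular epithelium and the glomerular filter in place, while other integrins serve interstitial cells and leukocytes.

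The libraries held 22858907 to 36998378 counts in HOMO, 18995464 to 37023629 in HET and 28481944 to 36119168 in WT. Levels are in CPM, the count relative to the library total, scaled by TMM composition factors. A value after ± is a standard error beside a log2 fold change and an SD beside a mean. Xdh itself had 61.7, 60.7, 229.7 and 57.6 CPM in HOMO, 182, 197, 140.4 and 158 CPM in HET and 281, 379.8, 212 and 270.1 CPM in WT, with a log2 fold change of -1.48 ± 0.43 and an adjusted p of 0.0101 in HOMO against WT. HOMO replicate 3 lay within the WT range for Xdh, unlike the other HOMO libraries, and the reason was not tested. Counts of members are therefore also given without the library labelled HOMO replicate 3. The 10 proximal tubule markers tested were all lower in HOMO than in WT. Their summed level was 2156 to 2442 CPM in HOMO, 22018 to 23208 CPM in HET and 19762 to 24579 CPM in WT. HOMO replicate 3 had the lowest sum, 2156 CPM. These were bulk samples, in which fewer cells of a type and less RNA per cell cannot be told apart.

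Most integrin and laminin chains were higher in the HOMO cortex than in the WT cortex. Among the largest increases were those of Lamb3, a chain of epithelial anchoring laminin, and Itga2, a collagen receptor chain. Itgb4, the hemidesmosome integrin, and all 7 leukocyte integrins also rose. Lamc3, Itga2b, Itga6 and Itgb8 fell. At an adjusted p under 0.05 in edgeR's quasi-likelihood test, 25 members were higher, 4 were lower and 7 were not called, so 80.6% were called. Among all 15856 genes tested, 71.7% were called, 37.0% higher and 34.7% lower. The share of members called was thus near that of all genes, while 69.4% of members were higher and 11.1% lower. The counts by class and by marker list given below for HOMO against WT stand beside the same shares of all genes. The median log2 fold change was 0.94 over the members and 0.04 over all genes. In 27 members the HOMO libraries did not overlap the WT libraries, which is 75.0% of them, against 66.4% of all genes. Itga10, which passed the filter through HOMO alone and so had to differ, is counted among the 25 higher and these 27. At an unadjusted p under 0.05 there were 30 members, against 73.6% of all genes. Without HOMO replicate 3, 26 members were higher and 4 lower. The composition factors were 1.29 to 1.35 in HOMO and 0.830 to 0.908 in WT. With library size alone, the median log2 fold change of all genes was 0.65, and 30 members were higher and 3 lower. In that setting 10292 of all 15856 genes were higher and 2564 lower.

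**Figure D1:**
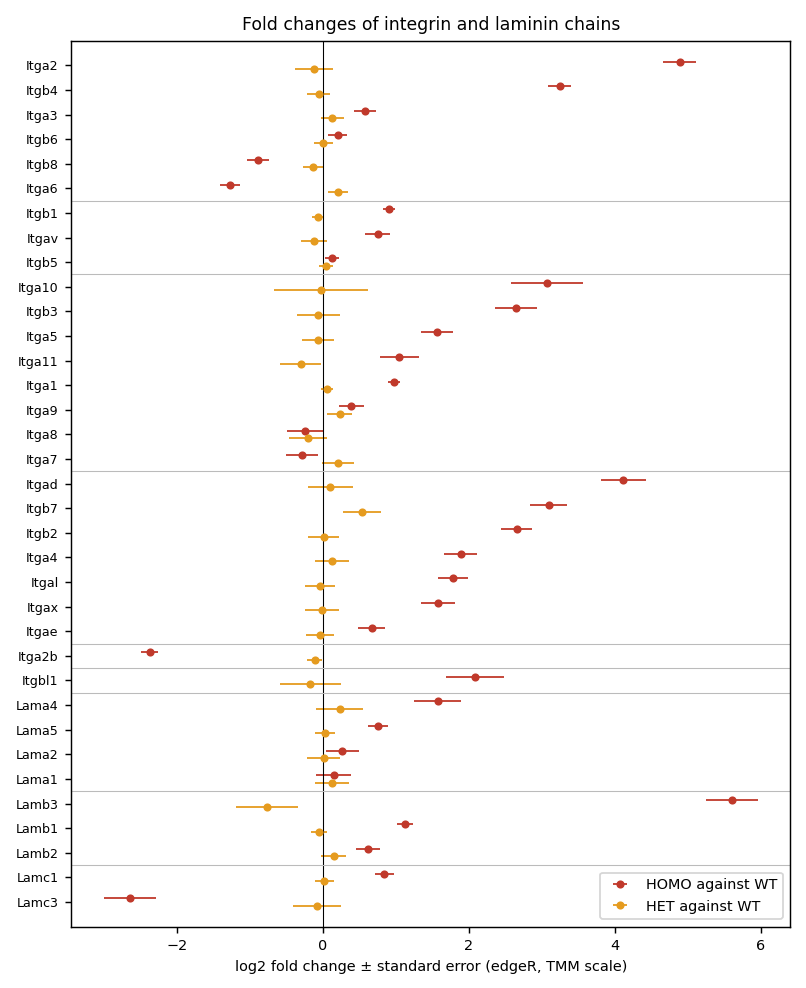
Log2 fold change of the members reported in HOMO against WT (red) and in HET against WT (orange), with bars for the standard error, grouped by class of chain. In HOMO against WT, Lamb3 (5.60) and Itga2 (4.89) lie farthest above 0 of those plotted, and Lamc3 (-2.64) and Itga2b (-2.37) farthest below it, while the HET values run from -0.76 to 0.53.

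Promoter sequences from RefSeq (build GRCr8) matched 27 of the 36 members and run from 250 bases before to 50 after the listed start. Those of the 2 members that rose most and the 2 that fell most among the matched are printed, so that the chains with the largest differences can be read beside their values. Capitals mark matches to an NF-kappa-B motif, searched on both strands.
Lamb3, chr13:107362303-107362602, plus strand: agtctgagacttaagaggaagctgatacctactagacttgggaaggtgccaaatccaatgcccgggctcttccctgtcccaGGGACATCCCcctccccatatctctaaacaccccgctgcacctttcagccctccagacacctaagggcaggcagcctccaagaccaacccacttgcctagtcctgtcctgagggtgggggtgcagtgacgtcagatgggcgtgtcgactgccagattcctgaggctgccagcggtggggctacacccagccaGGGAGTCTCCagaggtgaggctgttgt
Itga2, chr2:48354460-48354759, minus strand: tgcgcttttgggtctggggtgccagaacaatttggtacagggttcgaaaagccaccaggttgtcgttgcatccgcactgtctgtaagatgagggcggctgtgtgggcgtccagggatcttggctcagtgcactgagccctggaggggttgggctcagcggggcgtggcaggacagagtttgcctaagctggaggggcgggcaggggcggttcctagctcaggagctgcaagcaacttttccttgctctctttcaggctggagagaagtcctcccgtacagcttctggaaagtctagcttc
Lamc3, chr3:35562739-35563038, plus strand: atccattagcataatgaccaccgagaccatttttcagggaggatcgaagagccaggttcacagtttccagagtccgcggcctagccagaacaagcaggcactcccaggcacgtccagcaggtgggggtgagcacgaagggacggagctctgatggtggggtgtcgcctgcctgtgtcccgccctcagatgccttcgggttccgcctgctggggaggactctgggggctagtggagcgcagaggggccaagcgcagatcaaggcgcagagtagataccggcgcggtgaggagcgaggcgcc
Itga2b, chr10:87925784-87926083, minus strand: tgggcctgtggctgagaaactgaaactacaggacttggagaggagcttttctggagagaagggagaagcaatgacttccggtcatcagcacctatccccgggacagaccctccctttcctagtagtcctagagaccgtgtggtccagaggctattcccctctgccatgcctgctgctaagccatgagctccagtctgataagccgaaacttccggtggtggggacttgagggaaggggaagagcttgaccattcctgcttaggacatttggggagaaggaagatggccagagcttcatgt
The Lamb3 promoter held 2 matches to the NF-kappa-B motif, at 169 before and 24 after the start, and the other 3 printed promoters held no match to any motif searched. Of the 27 member promoters, 2 held the NF-kappa-B motif (Lamb3 and Itga5), against 4.16% of all 27457 promoters of the same length. The AP-1 motif TGANTCA was in 1 of the 27 (Itgax), against 7.33% of all, and the GATA motif AGATAA was in 1 (Itgae), against 11.3% of all. Matches to different motifs did not overlap in these promoters. A match is only a run of letters in this window.

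The laminin beta chains all rose, Lamb3 by the most. Lamb3 encodes the beta chain of the laminin that anchors squamous and other epithelia. Lamb3 (ENSRNOG00000006025, chromosome 13, listed start 112031594 in Rnor_6.0) had 56.03, 36.2, 48.5 and 80.2 CPM in HOMO, 0.654, 0.937, 0.611 and 0.368 CPM in HET and 0.857, 0.508, 1.74 and 1.38 CPM in WT. Every HOMO library was far above every WT and HET library, and the log2 fold change against WT was 5.60 ± 0.35 (adjusted p = 4.07e-08). HOMO replicate 4 was the highest library and HOMO replicate 2 the lowest of its group.

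Lamb1, the beta chain of most developing and many adult basement membranes, had 398, 381, 369.7 and 441 CPM in HOMO, 197, 177, 150.2 and 180.2 CPM in HET and 176, 221, 161 and 172 CPM in WT. The HOMO libraries all lay above the others, with a log2 fold change of 1.12 ± 0.11 against WT (adjusted p = 1.15e-06). Lamc1, the gamma chain shared by most laminins, had 211, 184, 181 and 245 CPM in HOMO, 142, 107, 94.1 and 121 CPM in HET and 119, 126, 104 and 109 CPM in WT. Here too the HOMO values stood above the WT values, by 0.84 ± 0.13 on the log2 scale (adjusted p = 6.47e-05). Lamb2, the beta chain of the mature glomerular filter, had 168, 154, 258 and 174 CPM in HOMO, 135, 139, 111 and 159.8 CPM in HET and 151, 115, 114 and 109.7 CPM in WT. Its HOMO libraries were above the WT libraries by a narrow margin, with a log2 fold change of 0.62 ± 0.17 (adjusted p = 0.00486).

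Lamc3, a gamma chain gene, went the other way. It had 3.82, 7.13, 4.35 and 1.86 CPM in HOMO, 28.8, 26.1, 19.3 and 27.6 CPM in HET and 37.6, 29.4, 15.7 and 25.01 CPM in WT. All HOMO libraries were below all WT libraries, and the log2 fold change was -2.64 ± 0.36 (adjusted p = 3.51e-05).

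Of the laminin alpha chains, Lama4 and Lama5 rose, and Lama1 and Lama2 were not called. Lama4, the alpha chain of blood vessels, had 81.9, 57.1, 35.3 and 58.9 CPM in HOMO, 34.9, 20.1, 12.5 and 24.2 CPM in HET and 25.02, 18.6, 13.8 and 20.9 CPM in WT. The groups were apart, with a log2 fold change of 1.57 ± 0.32 (adjusted p = 0.000941), and HOMO replicate 1 was the highest library. Lama5, the alpha chain of mature tubules and the glomerular filter, had 174, 173, 204 and 264 CPM in HOMO, 122, 109, 111 and 149.5 CPM in HET and 125, 127, 111 and 119 CPM in WT. All HOMO values exceeded all WT values, by 0.76 ± 0.14 on the log2 scale (adjusted p = 0.00024). Lama1, an alpha chain of embryonic and tubular basement membranes, had 48.4, 54.5, 30.2 and 55.7 CPM in HOMO, 45.5, 51.3, 33.5 and 56.01 CPM in HET and 39.3, 61.4, 36.5 and 33.4 CPM in WT. The 3 genotypes overlapped, and the log2 fold change was 0.15 ± 0.24 (adjusted p = 0.589). Lama2, the alpha chain of muscle, spanned 40.3 to 57.1 CPM in HOMO, 26.9 to 50.9 CPM in HET and 26.6 to 55.4 CPM in WT, with a log2 fold change of 0.27 ± 0.23 (adjusted p = 0.31).

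**Figure D2:**
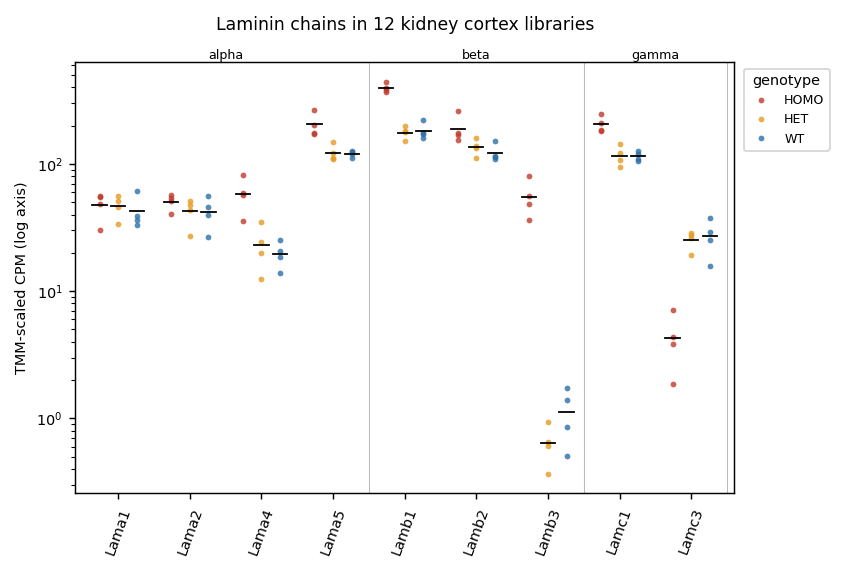
TMM-scaled CPM of the laminin chains in each library on a log axis, with points for libraries and bars for group means. The HOMO points of Lamb3 (36.2 to 80.2 CPM) stand apart above HET and WT, and those of Lamc3 stand below.

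Within each class, levels can be compared between chains per gene length, as counts divided by listed gene length and by the library total. The ratio of Lamc3 to Lamc1 per length was 0.0228, 0.04903, 0.0303 and 0.00961 in HOMO, 0.256 to 0.306 in HET and 0.1897 to 0.3998 in WT. All HOMO libraries lay below all HET and WT libraries in that ratio. Lamb3 made up 8.56% to 15.3% of the beta chains in HOMO, 0.150% to 0.411% in HET and 0.208% to 0.870% in WT. The Lamb1 share overlapped between genotypes, at 54.1% to 66.0% in HOMO, 54.0% to 60.4% in HET and 54.6% to 66.7% in WT. Lama5 was the largest alpha chain share in all genotypes, at 39.4% to 55.5% in HOMO, 41.4% to 54.7% in HET and 44.5% to 53.3% in WT. The Lama4 share was 18.3% to 35.2% in HOMO, 11.8% to 22.6% in HET and 12.5% to 17.0% in WT.

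**Figure D3:**
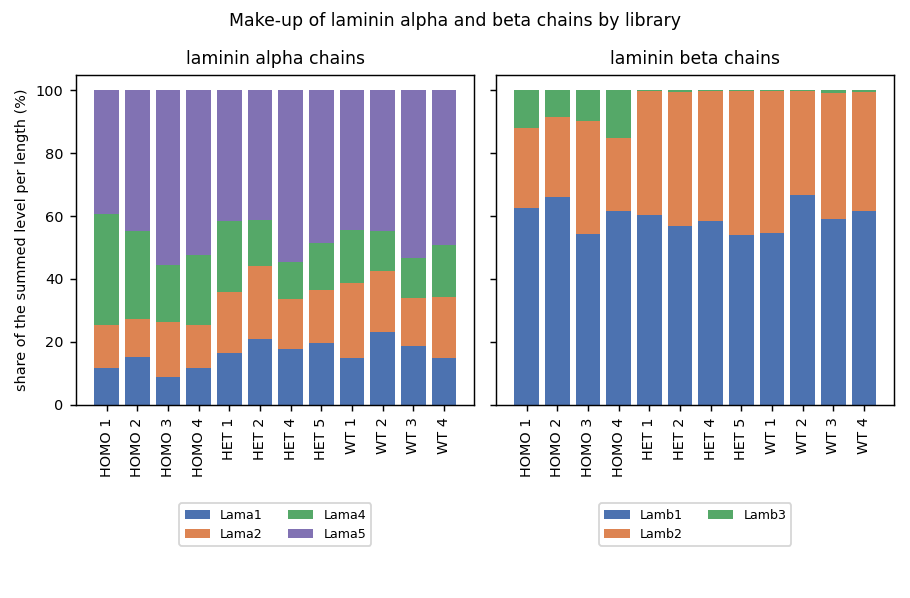
Share of each laminin alpha and beta chain in the summed level per length of its class (percent) in each library. The Lamb3 segment is 8.56% to 15.3% of the beta chains in the HOMO libraries and at most 0.870% in WT.

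Markers of urothelium and squamous epithelium, which express Lamb3, were read beside it. The 4 uroplakins summed to 139.5, 4.06, 0.761 and 0.881 CPM in HOMO, 0.218 to 0.561 CPM in HET and 0.349, 1.61, 12.1 and 6.23 CPM in WT. HOMO replicate 1 held nearly all of the HOMO uroplakin signal, while Lamb3 was high in all 4 HOMO libraries. Of the 5 tested genes of that marker list, Krt14 was higher in HOMO than in WT and the 4 uroplakins were not called. Against HET, 3 of the 4 uroplakins were called higher in HOMO, beside 36.2% of all genes called higher. No HET library reached the cut of the count filter for any of the 4 uroplakins. They needed the HOMO libraries to pass it, which favours a difference from HET. The part of urothelium in the Lamb3 values was not tested. WT replicate 3 had the highest Lamb3 value and the highest uroplakin sum of the WT libraries.

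**Figure D4:**
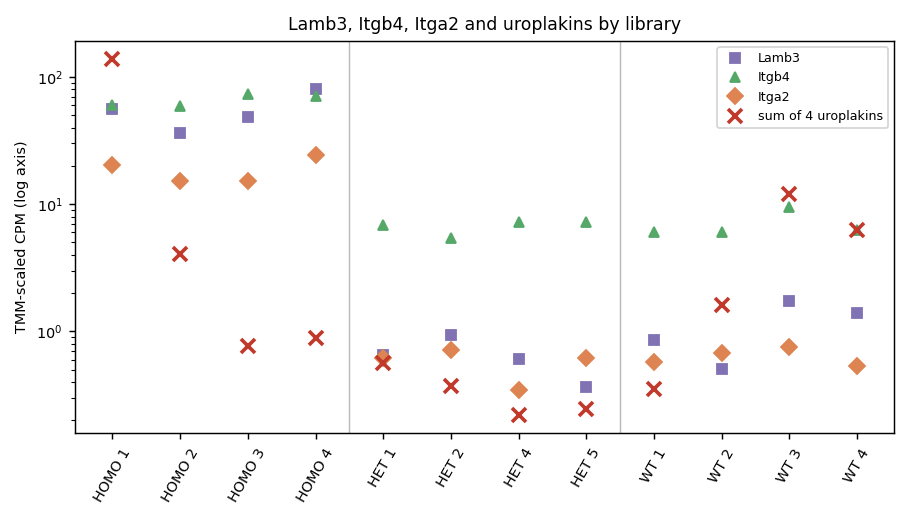
Levels of Lamb3, Itgb4 and Itga2 beside the summed uroplakins in each library (TMM-scaled CPM, log axis). The uroplakin sum is 139.5 CPM in HOMO replicate 1 and 0.761 to 4.06 CPM in the other HOMO libraries, while Lamb3 stays at 36.2 CPM or more in all 4.

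Among the 6 epithelial integrins, 3 rose, 2 fell and 1 was not called, so 83.3% were called, against 71.7% of all genes. Itgb4, which pairs with Itga6 in hemidesmosomes and binds the laminin that holds Lamb3, had 60.03, 59.4, 72.8 and 71.01 CPM in HOMO, 6.85, 5.398, 7.29 and 7.23 CPM in HET and 6.097, 6.01, 9.49 and 6.23 CPM in WT (ENSRNOG00000005580, chromosome 10, listed start 104523996). The HOMO libraries were all far above the rest, with a log2 fold change of 3.24 ± 0.16 (adjusted p = 1.83e-09). Its partner Itga6, a laminin receptor chain that also pairs with Itgb1, had 145, 166, 119 and 142 CPM in HOMO, 333, 432, 489.6 and 342 CPM in HET and 319.5, 405, 329 and 324 CPM in WT (ENSRNOG00000001518, chromosome 3, listed start 58443101). No HOMO library reached the WT or HET range, and the log2 fold change was -1.27 ± 0.14 (adjusted p = 3.16e-06). The ratio of Itgb4 to Itga6 per length was 0.364, 0.314, 0.537 and 0.441 in HOMO, 0.0110 to 0.0186 in HET and 0.0130 to 0.0253 in WT.

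Itga2, a collagen receptor chain that pairs with Itgb1, had 20.3, 15.3, 15.2 and 24.4 CPM in HOMO, 0.623, 0.712, 0.349 and 0.613 CPM in HET and 0.572, 0.677, 0.756 and 0.535 CPM in WT (ENSRNOG00000058111, chromosome 2, listed start 47000323). All HOMO libraries exceeded all others, by 4.89 ± 0.23 on the log2 scale against WT (adjusted p = 1.35e-09). Itga3, a laminin receptor chain of podocytes and tubules, spanned 89.6 to 128 CPM in HOMO, 66.5 to 93.8 CPM in HET and 59.96 to 90.02 CPM in WT. It was higher in HOMO with a log2 fold change of 0.58 ± 0.16 (adjusted p = 0.00484), although the groups overlapped. The ratio of Itga6 to Itga3 per length was 0.794 to 1.46 in HOMO, 3.00 to 6.06 in HET and 2.92 to 4.52 in WT.

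Itgb6 and Itgb8 both pair with Itgav and can activate latent TGF-beta. Itgb8 had 60.1, 58.7, 75.9 and 64.4 CPM in HOMO, 96.6, 100.4, 145 and 94.9 CPM in HET and 106, 107, 145 and 121 CPM in WT. Its HOMO libraries lay below all WT libraries, with a log2 fold change of -0.88 ± 0.15 (adjusted p = 0.000145). With library size alone as the scaling, the value was -0.27 (adjusted p = 0.119) and Itgb8 was not called. Itgb6 had 147, 127, 158 and 168 CPM in HOMO, 113, 148, 114 and 149 CPM in HET and 129.6, 157, 116 and 118 CPM in WT. The groups overlapped, with a log2 fold change of 0.21 ± 0.13 (adjusted p = 0.169). It was called higher without WT replicate 2 (0.30, adjusted p = 0.0479) and with library size alone (0.82, adjusted p = 2.48e-05). The ratio of Itgb8 to Itgb6 per length, which no composition factor touches, was 0.512 to 0.642 in HOMO, 0.850 to 1.71 in HET and 0.907 to 1.67 in WT. Of the collecting duct and distal markers, 7 of 10 were lower and 1 was higher, and their part in these values was not tested.

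**Figure D5:**
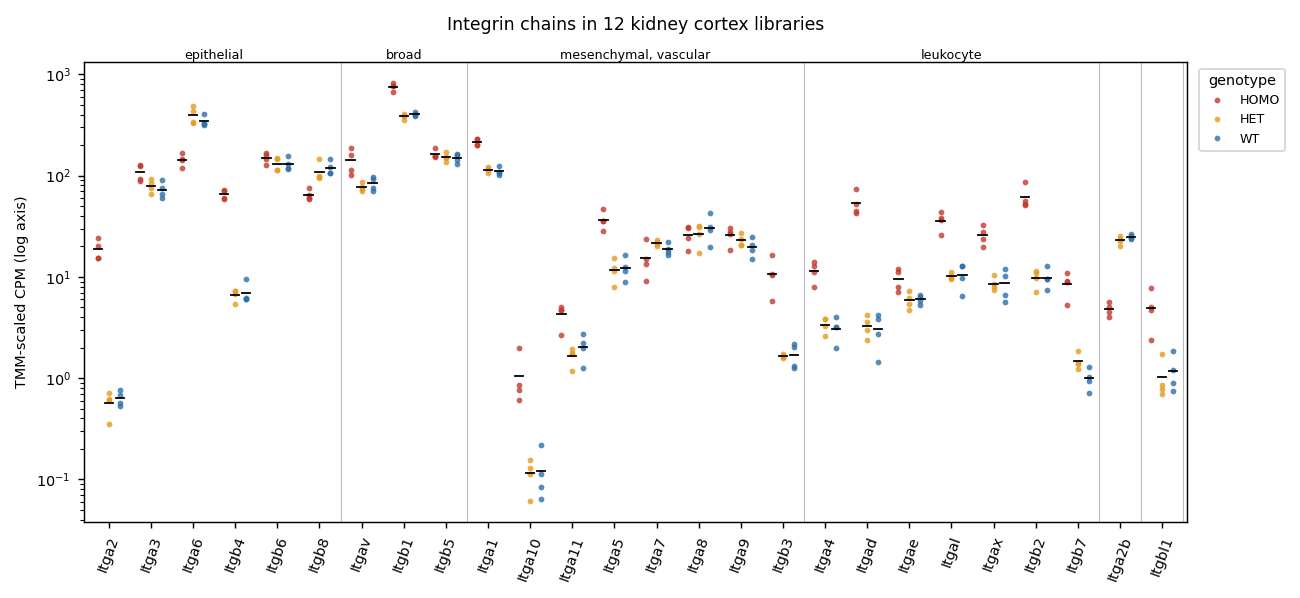
TMM-scaled CPM of the integrin chains and Itgbl1 in each library on a log axis, with points for libraries and bars for group means. Itga2 and Itgb4 (59.4 to 72.8 CPM in HOMO) stand apart above HET and WT, and Itga6 and Itga2b stand apart below.

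Of the 3 broadly expressed chains, Itgb1 and Itgav rose and Itgb5 was not called. Itgb1, the partner of most matrix-binding alpha chains, had 771, 775, 666 and 818 CPM in HOMO, 405, 389, 356 and 389 CPM in HET and 425, 403, 388 and 398 CPM in WT (ENSRNOG00000010966, chromosome 19, listed start 61677542). HOMO was above WT and HET in every library, with a log2 fold change of 0.91 ± 0.08 (adjusted p = 3.50e-07). Itgb1 was the most abundant member per length, at 275 ± 20.01 in HOMO and 96.2 ± 6.56 in WT (SD, n = 4). These means are on the RPKM scale, counts per length and library total, without the composition factors. They rank chains within a genotype, and the size of the change between genotypes is given by the log2 fold change above. Itgav, the alpha chain of vitronectin and latent TGF-beta receptors, had 103, 114, 188 and 161 CPM in HOMO, 74.3, 76.96, 70.7 and 87.1 CPM in HET and 75.2, 91.9, 97.6 and 71.2 CPM in WT. The groups did not overlap, but by a small margin, and the log2 fold change was 0.75 ± 0.18 (adjusted p = 0.00196). HOMO replicates 3 and 4 were the highest libraries. Itgb5, another partner of Itgav, is listed as a processed transcript and spanned 151 to 186 CPM in HOMO, 135 to 173 CPM in HET and 131 to 162 CPM in WT, with a log2 fold change of 0.12 ± 0.10 (adjusted p = 0.269).

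Of the 8 mesenchymal and vascular integrins, 5 rose and 3 were not called, so 62.5% were called, against 71.7% of all genes. Itga10, which passed the filter through HOMO alone, is counted among the 5. Itga1, a collagen receptor chain, had 203, 229.9, 203 and 229.9 CPM in HOMO, 115, 106, 116 and 123 CPM in HET and 109, 123, 107 and 101 CPM in WT. All HOMO libraries were above all WT libraries, by 0.97 ± 0.08 on the log2 scale (adjusted p = 2.07e-07). Itga5, the fibronectin receptor chain, had 35.5, 35.5, 28.5 and 46.5 CPM in HOMO, 15.3, 11.5, 7.99 and 12.3 CPM in HET and 16.3, 12.4, 8.997 and 11.4 CPM in WT. HOMO stood clear of both other genotypes, with a log2 fold change of 1.57 ± 0.22 (adjusted p = 3.20e-05). Itgb3, the vitronectin receptor chain that pairs with Itgav and Itga2b, had 10.4, 10.6, 5.73 and 16.3 CPM in HOMO, 1.65, 1.61, 1.57 and 1.72 CPM in HET and 2.16, 1.27, 1.32 and 2.04 CPM in WT. Its HOMO values were separate too, with a log2 fold change of 2.65 ± 0.29 (adjusted p = 2.64e-06). Itga10, a collagen receptor chain of cartilage, had 0.846, 0.756, 1.98 and 0.6099 CPM in HOMO, 0.156, 0.112, 0.131 and 0.0613 CPM in HET and 0.0635, 0.0846, 0.113 and 0.2202 CPM in WT. It was higher in every HOMO library, by 3.07 ± 0.49 (adjusted p = 8.42e-05), and it was the least abundant member per length in all genotypes. Its WT libraries held 2, 2, 3 and 7 counts, so the size of that change rests on few reads, and a gene that passed the filter through HOMO alone had to differ.

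Itga11, a collagen receptor chain of fibroblasts, spanned 2.64 to 4.99 CPM in HOMO, 1.18 to 1.96 CPM in HET and 1.25 to 2.73 CPM in WT. It rose with a log2 fold change of 1.05 ± 0.27 (adjusted p = 0.00317), although HOMO replicate 3 overlapped WT. Itga9, a tenascin receptor chain, spanned 18.5 to 30.5 CPM in HOMO, 20.6 to 27.3 CPM in HET and 14.97 to 24.9 CPM in WT and had a log2 fold change of 0.39 ± 0.17 (adjusted p = 0.0568). Itga9 was called higher by DESeq2 (adjusted p = 0.0439), without HOMO replicate 3 (0.52, adjusted p = 0.00866), without WT replicate 2 (0.52, adjusted p = 0.0169) and with library size alone (1.007, adjusted p = 0.000101). Itga8, the nephronectin receptor chain of mesangial and smooth muscle cells, spanned 18.2 to 31.3 CPM in HOMO, 17.2 to 32.1 CPM in HET and 19.9 to 42.8 CPM in WT, with a log2 fold change of -0.24 ± 0.25 (adjusted p = 0.411). Itga7, a laminin receptor chain of muscle, spanned 9.101 to 23.7 CPM in HOMO, 20.2 to 23.2 CPM in HET and 16.3 to 21.97 CPM in WT, with a log2 fold change of -0.28 ± 0.22 (adjusted p = 0.27). HOMO replicate 1 was the only HOMO library of Itga7 above the lowest WT library, and without it the value was -0.57 (adjusted p = 0.00698). For Itga7 and Itga8 the sign turned with library size alone.

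The 10 fibroblast and mural cell markers tested were all higher in HOMO, with a summed level of 3667 to 7200 CPM in HOMO, 552 to 901 CPM in HET and 647 to 959 CPM in WT. Per length and relative to Pdgfrb, a mural and fibroblast receptor, Itga8 was 0.111 to 0.261 in HOMO and 0.506 to 0.608 in WT, and Itga7 and Itga9 also lay below their WT range. Relative to Pdgfrb, Itga1, Itga5, Itga10, Itga11 and Itgb3 overlapped between HOMO and WT. Of 7 endothelial markers, 2 were higher and 5 lower, with a sum of 203 to 240.4 CPM in HOMO, 276 to 421 CPM in HET and 271 to 439 CPM in WT. Among 6 podocyte markers, 2 were higher, 3 lower and 1 not called. Both muscle markers tested, Des and Acta1, were higher, but Acta1 passed the count filter through its HOMO libraries alone and so had to differ. The part of these cell types in the integrin values was not tested.

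All 7 leukocyte integrins were higher in HOMO, against 37.0% of all genes, with a median log2 fold change of 1.89. Itgb2, the beta chain shared by leukocyte adhesion receptors, had 52.8, 50.9, 56.6 and 87.5 CPM in HOMO, 11.4, 9.78, 11.04 and 7.17 CPM in HET and 9.43, 7.45, 9.602 and 12.7 CPM in WT (ENSRNOG00000001224, chromosome 20, listed start 11777783). The HOMO libraries were all above the others, by 2.65 ± 0.22 on the log2 scale (adjusted p = 2.86e-07). Itgad, an alpha partner of Itgb2 on macrophages, had 42.7, 45.2, 52.1 and 73.2 CPM in HOMO, 4.24, 2.96, 2.400 and 3.55 CPM in HET and 4.19, 2.71, 1.44 and 3.84 CPM in WT (ENSRNOG00000019728, chromosome 1, listed start 199495298). Its groups were far apart, with a log2 fold change of 4.11 ± 0.31 (adjusted p = 1.64e-07). Itgax, a related alpha partner of Itgb2 on dendritic cells and macrophages, had 19.8, 23.6, 27.8 and 32.5 CPM in HOMO, 10.5, 7.497, 8.47 and 7.91 CPM in HET and 12.1, 6.600, 5.63 and 10.2 CPM in WT. HOMO was above WT throughout, with a log2 fold change of 1.58 ± 0.23 (adjusted p = 4.76e-05). The ratio of Itgad to Itgax per length was 1.18 to 1.42 in HOMO, 0.178 to 0.283 in HET and 0.160 to 0.258 in WT. These genes are related in sequence, and reads may have been split between them.

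Itgal, the alpha chain of the lymphocyte receptor for ICAM proteins, had 36.2, 37.99, 26.03 and 43.9 CPM in HOMO, 11.3, 9.67, 10.3 and 9.62 CPM in HET and 12.9, 9.77, 6.43 and 12.8 CPM in WT. The groups did not overlap, with a log2 fold change of 1.78 ± 0.21 (adjusted p = 6.03e-06). Itga4, which pairs with Itgb1 or Itgb7 and binds VCAM1, had 11.3, 12.7, 7.93 and 13.99 CPM in HOMO, 3.86, 2.59, 3.27 and 3.7996 CPM in HET and 3.21, 3.17, 1.97 and 3.995 CPM in WT. HOMO was higher in each library, by 1.89 ± 0.23 (adjusted p = 7.58e-06). Itgb7, the beta chain of gut-homing lymphocytes, had 9.06, 8.87, 5.25 and 11.05 CPM in HOMO, 1.37, 1.24, 1.396 and 1.84 CPM in HET and 1.302, 1.02, 0.718 and 0.944 CPM in WT. This chain was also separate, with a log2 fold change of 3.09 ± 0.25 (adjusted p = 2.02e-07). Itgae, which pairs with Itgb7 and binds E-cadherin, had 11.2, 12.1, 7.13 and 7.996 CPM in HOMO, 6.199, 5.44, 4.67 and 7.23 CPM in HET and 5.78, 5.25, 6.39 and 6.701 CPM in WT. HOMO was above WT by a small margin but overlapped HET, with a log2 fold change of 0.67 ± 0.19 against WT (adjusted p = 0.00554).

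All 15 leukocyte markers tested were higher in HOMO, of which Cd79b and Ms4a1 needed the HOMO libraries to pass the count filter, with a summed level of 1795 to 2594 CPM in HOMO, 290 to 333 CPM in HET and 226 to 369 CPM in WT. Relative to Ptprc, the common leukocyte antigen, Itgad per length was 0.431 to 0.631 in HOMO and 0.0881 to 0.148 in WT. Itgb7 relative to Ptprc was 0.162 to 0.263 in HOMO and 0.1003 to 0.123 in WT. Itgae relative to Ptprc lay lower in HOMO, at 0.130 to 0.216, against 0.362 to 0.737 in WT. Itgal did likewise, at 0.480 to 0.624 in HOMO and 0.650 to 0.812 in WT. Itga4, Itgax and Itgb2 relative to Ptprc overlapped between HOMO and WT.

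Itga2b, the alpha chain of the platelet fibrinogen receptor, had 5.08, 5.597, 4.55 and 3.998 CPM in HOMO, 23.8, 22.7, 25.6 and 20.04 CPM in HET and 23.8, 25.3, 24.01 and 26.6 CPM in WT (ENSRNOG00000022071, chromosome 10, listed start 90398132). All HOMO libraries were below all others, with a log2 fold change of -2.37 ± 0.11 (adjusted p = 1.47e-09). Of the 4 platelet markers tested, Itga2b included, Pf4 and Gp1bb were higher (3.802 and 1.19 on the log2 scale) and Gp9 was lower (-2.74). Ppbp and Gp1ba, also on that list, held 0 to 3 and 0 to 2 counts in each library and were not tested. Gp1bb passed the count filter through HOMO alone, and Gp9 through HET and WT alone, so both had to differ. Itgbl1 had 7.76, 4.69, 5.01 and 2.41 CPM in HOMO, 1.74, 0.787, 0.698 and 0.858 CPM in HET and 1.21, 0.888, 1.85 and 0.755 CPM in WT. Its HOMO libraries were all above the WT libraries, with a log2 fold change of 2.08 ± 0.40 (adjusted p = 0.000396).

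No member was called between HET and WT by edgeR, with 0 at an unadjusted p under 0.05 and 0 called by DESeq2. Over all genes, 0% were called and 318 genes, or 2.01%, had an unadjusted p under 0.05. The HET and WT libraries did not overlap in 0 members, against 1.62% of all genes. The smallest p among the members was that of Itgb7, with a log2 fold change of 0.53 ± 0.26 and an unadjusted p of 0.0620. Lamb3 followed at -0.76 ± 0.43 and Itga6 at 0.21 ± 0.14. All 3 had an adjusted p of 1 in edgeR. The members' log2 fold changes in HET against WT ran from -0.76 to 0.53.

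Between HOMO and HET, which shares the HOMO libraries with the first comparison, 25 members were higher, 4 lower and 7 not called, against 70.6% of all genes called, 36.2% higher and 34.5% lower. Itga10, which passed the filter through HOMO alone and so had to differ, is again counted among the 25 higher. At an unadjusted p under 0.05 there were 30 members, against 72.9% of all genes. Without HOMO replicate 3, 23 were higher and 4 lower. The log2 fold change was 6.37 ± 0.38 for Lamb3 (adjusted p = 2.53e-08). The 4 members lower in HOMO were Lamc3 at -2.56 ± 0.36, Itga2b at -2.26 ± 0.11, Itga6 at -1.48 ± 0.14 and Itgb8 at -0.75 ± 0.15. Itga3 was 0.44 ± 0.16 (adjusted p = 0.0213) and Lamb2 was 0.47 ± 0.17 (adjusted p = 0.0228). The Itga3 call was lost without any 1 of HOMO replicates 3 and 4 and HET replicates 1 and 4, at 0.36 to 0.41 (adjusted p = 0.0562 to 0.0693). Lamb2 missed the threshold when HOMO replicate 3 (0.28, adjusted p = 0.0759) or HET replicate 4 (0.38, adjusted p = 0.0732) was left out. Itga7, not called, was called lower by DESeq2 (-0.49, adjusted p = 0.0403) and without HOMO replicate 1 (-0.78, adjusted p = 0.000888). In the authors' deposited table for HOMO against WT, 35 members were listed, of which 25 were higher and 4 lower. Of all 13851 genes in that table, 67.3% were called at a false discovery rate under 0.05.

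The ligands and partners of these chains were read from lists. Of 18 integrin ligands tested in HOMO against WT, 11 were higher, 1 was lower and 6 were not called, with a median log2 fold change of 1.35. That is 66.7% called, against 71.7% of all genes. Spp1, the secreted ligand osteopontin, averaged 12146 ± 1771 CPM in HOMO and 526 ± 180.4 CPM in WT (SD, n = 4 each), a log2 fold change of 4.53 ± 0.23 (adjusted p = 3.31e-09). Icam1, the ligand of Itgal and Itgb2, changed by 2.02 ± 0.14 (adjusted p = 3.12e-08). Fn1, the ligand fibronectin of Itga5, changed by 3.96 ± 0.28 (adjusted p = 1.09e-07). Npnt, the ligand of Itga8, was the lower one, at -0.996 ± 0.08 (adjusted p = 2.21e-07).

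Of 15 basement membrane partners and other laminin receptors, 9 were higher, 3 lower and 3 not called, with a median of 0.35. The list had 60% higher and 20% lower, against 37.0% and 34.7% of all genes. Col18a1, a collagen of basement membranes, rose by 1.68 ± 0.11 on the log2 scale (adjusted p = 1.84e-08), and Agrn, a laminin-binding proteoglycan, by 1.83 ± 0.13 (adjusted p = 6.28e-08). Col4a4, a collagen of the mature glomerular filter, moved against the median, at -2.58 ± 0.21 (adjusted p = 2.06e-07). The other lower genes were Col4a3, its partner chain, and Nid2, which links laminin to collagen, both named after their values were seen.

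Of 25 genes of the integrin adhesion machinery, 12 were higher, 10 lower and 3 not called. With library size alone, 19 were higher and 1 lower, while 10292 of all 15856 genes were higher and 2564 lower. In the main scaling 48% were higher and 40% lower, against 37.0% and 34.7% of all genes, and the median of 0.06 was near the 0.04 of all genes. Fermt3, the kindlin of blood cells, rose by 2.20 ± 0.18 (adjusted p = 1.49e-07), and Fermt1, the epithelial kindlin, by 1.17 ± 0.09 (adjusted p = 1.50e-07). Parvg, a parvin of leukocytes, rose by 2.50 ± 0.22 (adjusted p = 4.37e-07). Ptk2, focal adhesion kinase, was lower at -0.56 ± 0.07 (adjusted p = 5.93e-06). Of the 4 hemidesmosome partners tested, Plec, a linker of Itgb4 to keratin, rose by 1.78 ± 0.16 (adjusted p = 4.68e-07) and Krt14, a basal keratin, by 2.45 ± 0.49 (adjusted p = 0.000962). Dst, another linker, was lower at -0.53 ± 0.11 (adjusted p = 0.000582), and Col17a1 was not called, at -0.29 ± 1.02 (adjusted p = 0.811). In this list 75% were called, against 71.7% of all genes.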

How the data were processed

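The authors deposited raw counts per gene, with RPKM values, for 12 libraries. RNA was extracted with Trizol and made into stranded mRNA libraries, per the labels' protocols. Build Rnor_6.0 and edgeR 3.8.6 are named, per the submitters' processing notes; the aligner, counter and use of strand were not given in the sources read. The deposited RPKM values matched counts per length and total (median deviation 0.0416%) and served no other purpose. The authors' deposited tables give log2 fold changes and p-values with false discovery rates.

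Genes were filtered with filterByExpr (minimum count 10, minimum total 15), leaving 15856. One edgeR 4.0.16 quasi-likelihood model (R 4.3.3, TMM, robust) was fitted to all 12 libraries, and p-values were Benjamini-Hochberg adjusted over all genes tested; it was tested on simulated data. DESeq2 1.42.0 and other settings were alternatives. One matched gene is not reported by name or value and is kept only in counts over the members. Members, lists and rules were chosen with earlier results of these data known. Values per library are given for called members whose groups do not overlap and for a few fixed chains; each list gives its 3 smallest p and 1 gene against its median.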

Additional observations from a re-analysis of the deposited data

Results flagged for a closer look

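In 8 of 105 groups of 4 libraries tested among the members, 1 library stood far from the others. Chance alone flags about 1 in 20 such groups. In HOMO, Itga11 was low in replicate 3 at 2.64 CPM, against 4.69 to 4.99 CPM in the other HOMO libraries. Itgb2 was high in HOMO replicate 4 at 87.5 CPM, against 50.9 to 56.6 CPM. Itgb5 was high in HOMO replicate 3 at 186 CPM, against 151 to 156 CPM. In HET, Itgb8 was high in replicate 4 at 145 CPM, against 94.9 to 100.4 CPM, and Itgbl1 was high in replicate 1 at 1.74 CPM, against 0.698 to 0.858 CPM. In WT, Itga6 was high in replicate 2 at 405 CPM, against 319.5 to 329 CPM, and Lamb2 was high in replicate 1 at 151 CPM, against 110 to 115 CPM. WT replicate 3 was high for Itgb4, at 9.49 CPM against 6.01 to 6.23 CPM. The same library had the highest uroplakin sum of the WT libraries, 12.1 CPM, whose part in this value was not tested.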

How the results depend on the processing

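In HOMO against WT, 28 of 36 members kept their direction and their side of the threshold under every setting run, and in HOMO against HET 26 of 36 did. Leaving out 1 library at a time gave 25 to 27 members higher and 4 to 5 lower in HOMO against WT, 23 to 25 and 4 to 5 in HOMO against HET, and 0 in HET against WT. The mean Lamb3 share of the beta chains in HOMO, which comes from no fit, was 10.1% to 12.3% with 1 HOMO library left out at a time. Same-numbered HOMO and WT libraries had correlations of -0.108, -0.133, 0.0223 and -0.120. The values were -0.0276, 0.185 and 0.1395 for HET and WT libraries, and 0.440, -0.0241 and -0.0959 for HOMO and HET libraries. Libraries with different numbers were not compared, so these values cannot decide whether the numbers pair the libraries. The replicate block gave 26 higher and 4 lower in HOMO against WT, Itga9 being called at an adjusted p of 0.00405. Against HET it also called Itga9 (0.0113) and Itga7 (0.0496). The ligands lower in HOMO than in WT were 2 under DESeq2 and under the replicate block, and 1 to 2 with a library left out. Scaling by library size alone called 10292 of all 15856 genes higher and 2564 lower in HOMO against WT. With library size alone, which moved the median of all genes to 0.65, the adhesion machinery had 19 higher and 1 lower, the hemidesmosome partners had 0 lower, Itgb5, Itgb6, Itga9, Lama1 and Lama2 were called higher in both HOMO comparisons and Itgb8 was called in neither, and signs turned for Itga7 (0.33) and Itga8 (0.37) in HOMO against WT and for Itga7 (0.14) and Itga8 (0.59) in HOMO against HET. In HOMO against HET, Itga8 was 0.23 under the block and 0.10, 0.06 and 0.03 without HOMO replicate 3, HET replicate 1 and HET replicate 5 (range -0.21 to 0.10 with a library left out), and Lama1 was -0.06, -0.07 and -0.12 without HOMO replicate 2, HOMO replicate 4 and HET replicate 4 (range -0.12 to 0.18). The cause was not tested. Few reads limit Itga10.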

Other observations

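The libraries of a group differed among themselves across many members. HOMO replicate 4 was the highest HOMO library for 19 of 36 members, including 6 of the 7 leukocyte integrins and 7 of the 10 laminin chains, and HOMO replicate 3 was the lowest for 17. HET replicate 4 was the lowest HET library for 21 members and WT replicate 3 the lowest WT library for 20. Such extremes were not counted over all genes, so these counts cannot show a pattern particular to the members. The median coefficient of variation over the members was 23.1% in HOMO, 17.1% in HET and 23.1% in WT.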
